A study of Homo sapiens with 10 samples.

Results

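The transcripts examined here were those of 10 genes that mark epithelial and mesenchymal cells or switch cells between these states: the cadherins CDH1, CDH2 and CDH3, the intermediate filament gene VIM, the transcription factors ZEB1, ZEB2, SNAI1 and SNAI2, the surface protein gene EPCAM and the fibronectin gene FN1. They were taken by gene symbol from the 23426 symbols of each sample, and all 10 were found in all 10 samples. MDA-MB-468, a triple-negative breast cancer cell line of basal-like type, and ZR75-1, a breast cancer line of luminal type, were treated for 6 h with the solvent DMSO (2 samples per line) or with 1 μM PKC412 (3 samples per line). The dose is that of the labels and methods, and some figure legends of the study give a lower one. PKC412, the drug midostaurin, inhibits many protein kinases. No transgene or gene deletion is named for either line, and each line stands alone for its subtype. The study compared how the basal-like and the luminal line respond to the drug.

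In epithelial sheets, cells are held together by E-cadherin, the product of CDH1, whose cytoplasmic tail is linked to actin through catenins. During epithelial-mesenchymal transition (EMT), transcription factors of the SNAI, ZEB and TWIST families bind E-box sequences and repress CDH1, while vimentin, N-cadherin (CDH2) and fibronectin are made in larger amounts. P-cadherin (CDH3) is known from myoepithelial cells and basal-like breast cancers. MicroRNAs of the miR-200 family hold ZEB1 and ZEB2 down in epithelial cells.

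Levels are given as FPKM, fragments corrected for transcript length and for the fragments mapped in a sample, so that genes can be set side by side. Differences between groups were tested with limma on log2(FPKM + 1) over 16071 genes, and a gene was counted as called when its Benjamini-Hochberg adjusted p was under 0.05; this scale understates the change of genes well below 1 FPKM. The study's methods describe treatment in triplicate, and the labels do not say whether the cultures were separate, so the p-values measure only the spread between these samples, which may be technical. Both lines carried the markers of their labels. Of 12 luminal markers tested, 10 were lower in MDA-MB-468 in DMSO and none was higher, and of 11 basal markers tested, 8 were higher and none was lower. Among all genes tested, 15.9% were lower there and 26.5% higher. FPKM sums ranged from 599228 to 835069 per sample, and the number of reads behind them is unknown.

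Among the 10 genes, CDH1 and VIM separated the lines most widely and in opposite directions, SNAI1 was higher in MDA-MB-468, and CDH3 was lower there. In DMSO, 4 of the 7 members that could be tested were called, 2 higher and 2 lower in MDA-MB-468, beside 42.4% of all genes tested (26.5% higher and 15.9% lower). In PKC412, 6 of 7 were called, 3 in each direction, beside 58.6% of all genes (37% higher and 21.6% lower). All 5 samples of a line lay on one side of all 5 of the other for 5 of the 7 members, beside 47.8% of all genes. With so many genes different between the lines, these shares are no mark of the 10 genes. The remaining 3 members, ZEB1, ZEB2 and SNAI2, had a mean FPKM of at most 0.1 in every group and were not tested. The median difference of the 7 tested members in DMSO was 0.22 on the log2 scale, beside 0.11 for all genes.

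**Figure D1:**
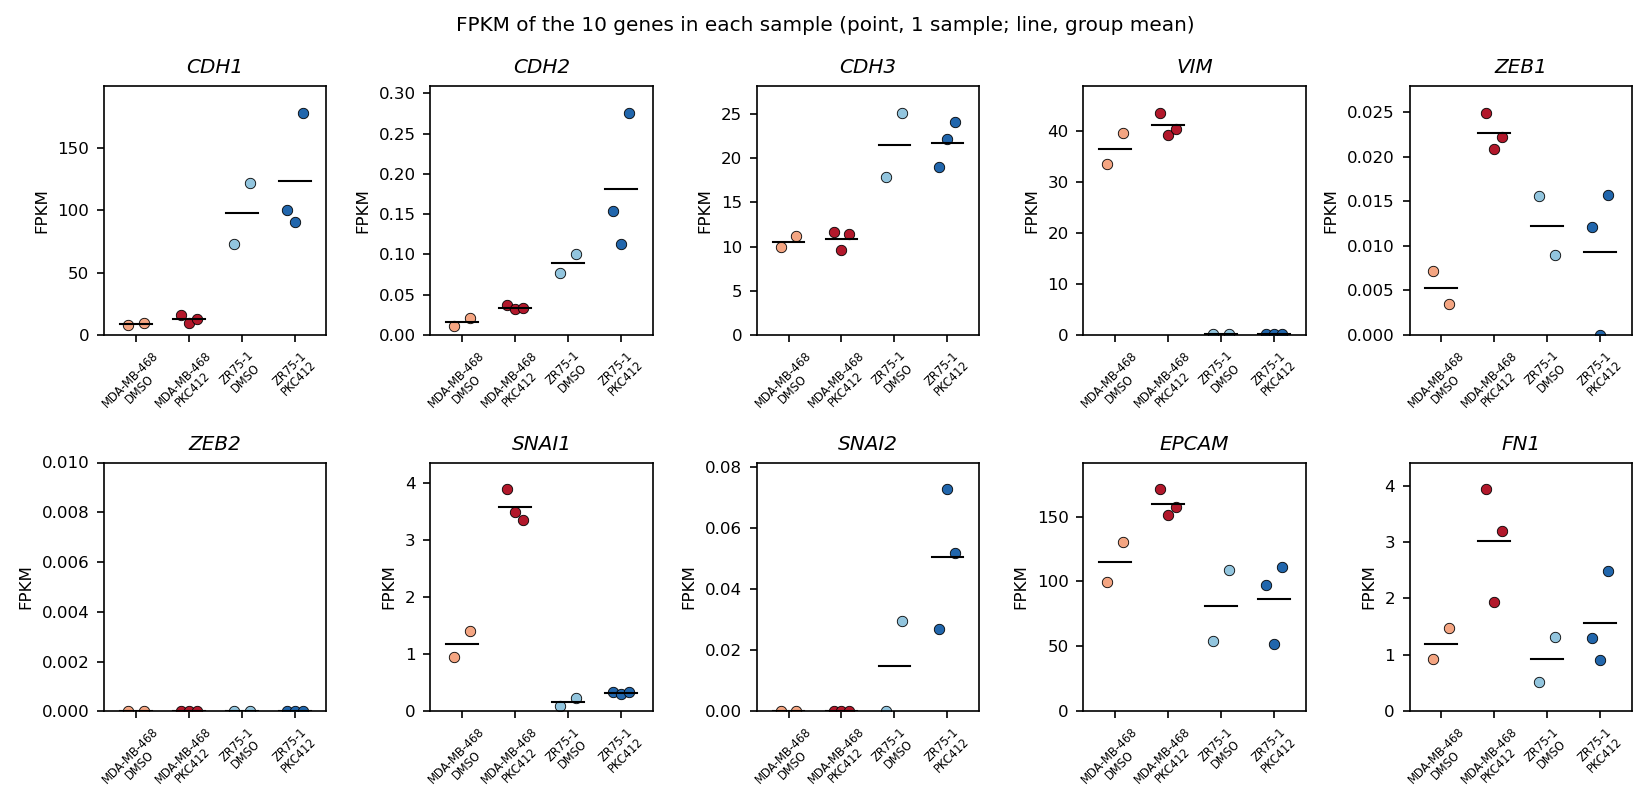
FPKM of the 10 genes in each sample, on linear axes that start at 0 and differ between panels; each point is 1 sample, each horizontal line a group mean, with 2 DMSO and 3 PKC412 samples per line. CDH1 and VIM stand apart between the lines in opposite directions, SNAI1 is highest in the 3 PKC412 samples of MDA-MB-468, and ZEB2 is at 0 in every sample.

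CDH1, which encodes E-cadherin, was present in both lines and far higher in the luminal one. Its FPKM in MDA-MB-468 was 7.53 and 9.82 in DMSO and 15.6, 9.81 and 12.7 in PKC412. In ZR75-1 it was 72.8 and 122 in DMSO and 100.5, 90.4 and 178 in PKC412. The highest MDA-MB-468 sample was thus well under the lowest ZR75-1 sample, and the treatments overlapped within each line. In DMSO the mean of MDA-MB-468 (8.68 ± 1.62, SD, n = 2) was lower than that of ZR75-1 (97.5 ± 34.9, SD, n = 2) by a factor of 11.2. On the log2(FPKM + 1) scale the difference, MDA-MB-468 minus ZR75-1, was -3.31 (SE 0.37, limma adjusted p = 0.00019) in DMSO and -3.13 (SE 0.31, limma adjusted p = 5.34e-05) in PKC412. In a bulk sample, fewer cells making a transcript and less of it per cell cannot be told apart.

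CDH3 lies beside CDH1 on the long arm of chromosome 16 (GRCh38.p14, 16:68645310-68733771 for CDH3 and 16:68737292-68835537 for CDH1), and its product, P-cadherin, uses the same catenins. CDH3 was also lower in MDA-MB-468, but by a factor of only 2.04 in DMSO. Its FPKM there was 9.90 and 11.2 in DMSO and 11.6, 9.56 and 11.4 in PKC412, against 17.9 and 25.2 in DMSO and 19.1, 22.2 and 24.1 in PKC412 in ZR75-1. The lines did not overlap, and within each line the treatments did. The log2 difference between the lines was -0.95 (SE 0.19, limma adjusted p = 0.0042) in DMSO and -0.94 (SE 0.16, limma adjusted p = 0.0011) in PKC412. P-cadherin transcript was therefore not higher in the basal-like line of this pair. Within a sample, the ratio of CDH1 to CDH3 FPKM ran from 0.76 to 1.34 in MDA-MB-468 and from 4.06 to 7.41 in ZR75-1. The transcripts of these cadherins stood near parity in the basal-like line, and that of CDH1 dominated in the luminal line. In MDA-MB-468 the ratio was 0.76 and 0.88 in DMSO and 1.34, 1.025 and 1.11 in PKC412. 

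Among 7 other genes around CDH3 and CDH1 on 16q22, 3 were lower and 1 was higher in MDA-MB-468 in DMSO. Of all genes tested, 15.9% were lower and 26.5% higher. PRMT7, an arginine methyltransferase gene, was lower (13.5 against 41.2 FPKM, log2 difference -1.53, limma adjusted p = 0.00097). CHTF8, whose product acts in sister chromatid cohesion, was higher (36.8 against 22.1 FPKM, log2 difference 0.71, limma adjusted p = 0.0045). The genes of this stretch thus did not all lie on the same side.

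CDH2, the N-cadherin gene and the usual partner of a cadherin switch, was close to absent from both lines. Its FPKM was between 0.011 and 0.037 in the 5 MDA-MB-468 samples and between 0.077 and 0.276 in the 5 ZR75-1 samples. The lines did not overlap, and it was the luminal line that held the higher values. The log2 difference was -0.10 (SE 0.06, limma adjusted p = 0.24) in DMSO and -0.19 (SE 0.05, limma adjusted p = 0.012) in PKC412; the DMSO difference was called in 2 of 18 alternatives (adjusted p down to 0.013, up to 0.45), and the call in PKC412 was lost without a trend in the variance (adjusted p = 0.051, with a range of 0.00056 to 0.051 over the alternatives). What 1 read is worth at these levels is not known, so the size of the difference is uncertain.

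Of the 20 other cadherin genes examined, only 4 passed the filter on low values, and none of these was a usual partner in the switch. CDH24 (4.73 against 2.41 FPKM) and CDH16 (0.32 against 0.02 FPKM) were higher in MDA-MB-468 in DMSO, and CDH23 (0.10 against 1.40 FPKM) and CDH12 (0.05 against 0.42 FPKM) were lower. The cadherins listed in both lines at over 5 FPKM were therefore CDH1 and CDH3 alone among the 23 examined.

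VIM encodes vimentin, the intermediate filament of mesenchymal cells. It showed the largest difference between the lines of the 7 tested members. FPKM was 33.5 and 39.6 in DMSO and 43.7, 39.3 and 40.5 in PKC412 in MDA-MB-468. In ZR75-1 it was 0.20 and 0.21 in DMSO and 0.24, 0.13 and 0.23 in PKC412. Every MDA-MB-468 sample lay far above every ZR75-1 sample, by a factor of 179 between the DMSO means. The log2 difference was 4.96 (SE 0.14, limma adjusted p = 1.42e-07) in DMSO and 5.13 (SE 0.12, limma adjusted p = 2.25e-08) in PKC412. The ratio of VIM to CDH1 FPKM within a sample ran from 2.80 to 4.45 in MDA-MB-468 and from 0.0013 to 0.0027 in ZR75-1. Both transcripts were thus present together in MDA-MB-468, with CDH1 at 7.53 FPKM or more in every sample.

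The 250 bases before the start of VIM and of FN1 are shown because the first of these mesenchymal genes differed between the lines and the second was not called in DMSO. Promoters of 5 of the 10 members, CDH2, VIM, ZEB1, ZEB2 and FN1, were matched in RefSeq (GRCh38.p14). Each is written in its own 5′ to 3′ direction, with the GC box GGGCGG and the cAMP response element TGACGTCA in capitals where a search of both strands found them. VIM lies on the plus strand (chr10:17227991-17228240) and FN1 on the minus strand (chr2:215436069-215436318).
VIM: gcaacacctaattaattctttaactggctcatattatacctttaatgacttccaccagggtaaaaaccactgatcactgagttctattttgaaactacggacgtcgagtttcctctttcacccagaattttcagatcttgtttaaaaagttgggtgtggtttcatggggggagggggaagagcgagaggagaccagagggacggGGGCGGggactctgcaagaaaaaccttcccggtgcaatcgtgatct
FN1: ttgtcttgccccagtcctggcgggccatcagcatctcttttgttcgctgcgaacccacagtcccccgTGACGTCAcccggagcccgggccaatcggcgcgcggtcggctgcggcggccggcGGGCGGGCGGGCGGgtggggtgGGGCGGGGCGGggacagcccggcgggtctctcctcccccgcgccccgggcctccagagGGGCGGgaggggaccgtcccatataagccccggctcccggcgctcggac

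The VIM window held 1 GC box, and the FN1 window held 6, some of them overlapping. The cAMP response element occurred once in the FN1 window, starting 183 bases before the gene start, and not in that of VIM. The E-box CACCTG, the form bound by SNAI and ZEB factors, was in neither window. Of 35116 promoters of the same length, 42.6% held a GC box, 1.65% the response element and 17.5% this E-box, so that the response element is the rarest of these letters. A match describes the letters only.

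FN1 encodes fibronectin, a matrix protein of mesenchymal cells, and its level was low in both lines. FPKM in MDA-MB-468 was 0.93 and 1.47 in DMSO and 3.94, 1.94 and 3.19 in PKC412. In ZR75-1 it was 0.52 and 1.32 in DMSO and 1.29, 0.91 and 2.48 in PKC412. The lines overlapped in both treatments, in contrast to VIM, and neither difference was called (0.22, SE 0.36, limma adjusted p = 0.69 in DMSO and 0.67, SE 0.29, limma adjusted p = 0.083 in PKC412). The second came under the threshold without MDA-MB-468 PKC412 replicate 2 (0.88, adjusted p = 0.044) and without ZR75-1 PKC412 replicate 3 (0.91, adjusted p = 0.025), within a range of 0.0089 to 0.24 over the alternatives.

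EPCAM encodes an epithelial adhesion protein that does not belong to the cadherins, and it was among the most abundant of the 10 genes in both lines. Its FPKM was 99.5 and 130.6 in DMSO and 171, 151 and 157 in PKC412 in MDA-MB-468, and 54.2 and 108 in DMSO and 96.9, 51.5 and 111 in PKC412 in ZR75-1. By group mean the order was MDA-MB-468 in PKC412 (159.9 ± 10.1, SD, n = 3), MDA-MB-468 in DMSO (115 ± 22, SD, n = 2), ZR75-1 in PKC412 (86.5 ± 31.1, SD, n = 3) and ZR75-1 in DMSO (81.3 ± 38.4, SD, n = 2). Neighbours in this order were not called against each other where they were tested. Between the lines the log2 difference was 0.56 (SE 0.40, limma adjusted p = 0.31) in DMSO, called only with an adjustment for GC content and length among 19 alternatives (0.64, adjusted p = 0.037, range up to 0.93), and 0.95 (SE 0.33, limma adjusted p = 0.037) in PKC412. The call in PKC412 was lost in 9 of 19 alternatives, with adjusted p up to 0.097 (range 0.0024 to 0.097). Among these were the fits without any 1 of the MDA-MB-468 samples, without ZR75-1 PKC412 replicate 1 (adjusted p = 0.053) and without ZR75-1 PKC412 replicate 2 (0.62, adjusted p = 0.096), so EPCAM was at most weakly separated from its level in the luminal line. The lower CDH1 of MDA-MB-468 therefore came without a lower EPCAM, and EPCAM stood at 10.97 to 15.4 times the FPKM of CDH1 there against 0.57 to 0.96 times in ZR75-1.

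Of the 4 EMT transcription factors among the members, only SNAI1 exceeded a mean of 0.1 FPKM. ZEB2 was listed at 0 in all 10 samples. ZEB1 was between 0.003 and 0.025 FPKM in MDA-MB-468 and between 0 and 0.016 in ZR75-1. SNAI2, the gene of Slug, was listed at 0 in all 5 MDA-MB-468 samples and in 1 ZR75-1 sample, and its highest value was 0.073 in ZR75-1. A listed 0 can be a failed estimate, and none of 15 housekeeping genes checked was at 0 in any sample. The high vimentin of MDA-MB-468 was thus measured beside ZEB1, ZEB2 and SNAI2 transcripts at or near 0.

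SNAI1 encodes Snail, the zinc finger repressor of CDH1. In DMSO it was 0.96 and 1.41 FPKM in MDA-MB-468 and 0.09 and 0.23 FPKM in ZR75-1, higher in the basal-like line by a factor of 7.38. The log2 difference was 0.91 (SE 0.14, limma adjusted p = 0.00094). In PKC412 it was 1.79 (SE 0.11, limma adjusted p = 4.20e-06), the groups again not overlapping. GENCODE lists a processed pseudogene, SNAI1P1, on chromosome 2, not analysed here, and how reads matching both were assigned is not given in the sources used here.

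**Figure D2:**
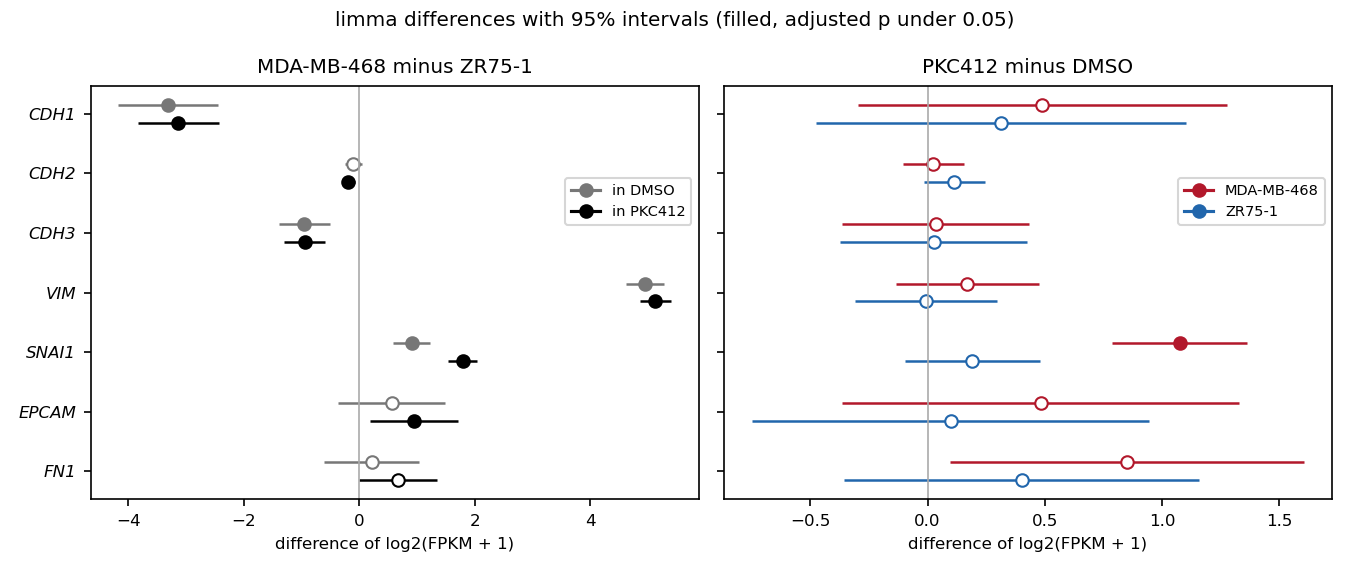
Differences of log2(FPKM + 1) for the 7 tested members, with 95% intervals; left, MDA-MB-468 minus ZR75-1 in DMSO and in PKC412; right, PKC412 minus DMSO in each line; filled points have a limma adjusted p under 0.05. VIM lies far to the right and CDH1 far to the left between the lines, and the only filled point for PKC412 is SNAI1 in MDA-MB-468.

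Because miR-200 family members target ZEB1 and ZEB2, their mature sequences are given from RefSeq (GRCh38.p14) with the seed, bases 2 to 8, in capitals. They fall into 2 seed groups, miR-141 and miR-200a sharing AACACUG and miR-200b, miR-200c and miR-429 sharing AAUACUG.
hsa-miR-141-3p: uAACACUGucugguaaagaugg
hsa-miR-200a-3p: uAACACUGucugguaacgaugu
hsa-miR-200b-3p: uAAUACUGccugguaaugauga
hsa-miR-200c-3p: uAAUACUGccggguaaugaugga
hsa-miR-429: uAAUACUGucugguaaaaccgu

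The files list precursors of all 5, in libraries of long RNA that do not measure mature microRNAs. MIR141 was listed in all 5 ZR75-1 samples, at 33.0 to 101.4 FPKM, and in 2 of 5 MDA-MB-468 samples, at 49.6 and 23.8. MIR200C was listed at 0 in 7 samples and at 200.3, 173 and 137 in the others, 1 of MDA-MB-468 and 2 of ZR75-1, all in PKC412. Such jumps from 0 within a group leave the precursors without a usable level: none of the 4 that could be tested was called between the lines in DMSO or for PKC412 in either line. Between the lines in PKC412, MIR141 was called as lower in MDA-MB-468 (0, 0 and 23.8 FPKM against 78.6, 85.3 and 33.0, log2 difference -4.40, SE 1.62, limma adjusted p = 0.045). With values at 0 in 1 of the groups, this call has the same limit. MIR429 lay the other way without a call. Its means in MDA-MB-468 and ZR75-1 were 64.8 against 0 FPKM in DMSO and 40.2 against 13.4 FPKM in PKC412.

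The other EMT transcription factors did not divide as SNAI1 did. Of 12, 9 could be tested in DMSO, of which 4 were higher and 3 lower in MDA-MB-468. For this list and those that follow, such counts stand beside 26.5% of all genes higher and 15.9% lower in DMSO. FOXC1, a forkhead factor associated with basal-like breast cancer, reached 6.76 ± 1.04 FPKM in MDA-MB-468 against 0.47 ± 0.02 in ZR75-1 (SD, n = 2 each), a log2 difference of 2.39 (SE 0.17, limma adjusted p = 1.45e-05). TWIST1, a basic helix-loop-helix repressor of CDH1, went the opposite way, with 0.11 ± 0.05 against 2.58 ± 1.27 FPKM (SD, n = 2 each; log2 difference -1.65, SE 0.22, limma adjusted p = 0.00054). GSC and LEF1, also known as inducers of EMT, were likewise higher in ZR75-1, at 1.90 and 1.93 FPKM on average in DMSO against 0 and 0.004 in MDA-MB-468. The line with the higher CDH1 and almost no VIM thus held more TWIST1, GSC and LEF1.

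Among proteins bound to the cadherin tail and their partners in the adherens junction, 3 of 11 tested were higher and 3 were lower in MDA-MB-468 in DMSO. The higher ones were VCL (9.11 against 2.50 FPKM), ARVCF (5.32 against 2.30 FPKM) and PVRL4 (21.5 against 12.5 FPKM). The call of VCL was lost in 8 of 19 alternatives. The lower ones were CTNNA1, JUP and PVRL2. CTNNA1, the gene of alpha-catenin, which ties the complex to actin, was lower, as CDH1 was (10.8 against 46.5 FPKM, log2 difference -1.95, SE 0.36, limma adjusted p = 0.0027). JUP, the gene of plakoglobin, was lower as well (112 against 187 FPKM, log2 difference -0.74, limma adjusted p = 0.0027). CTNNB1, the gene of beta-catenin, was not called (34.6 against 26.1 FPKM, log2 difference 0.44, SE 0.46, limma adjusted p = 0.50). Desmosome genes had 5 of 10 higher and 1 lower, with PKP3, a plakophilin gene, at 78.9 against 28.3 FPKM. Tight junction and polarity genes had 2 of 17 higher and 6 lower, among them CLDN8 (2.96 against 0.07 FPKM) and CLDN3 (28.3 against 111 FPKM). Of the desmosome and tight junction genes counted as higher, DSP and CLDN7 each lost their call in 6 of 19 alternatives.

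Epithelial regulators and surface proteins were split, with 4 of 20 higher and 6 lower. MUC1, a mucin of the luminal surface, was the lowest relative to ZR75-1 (184 against 2010 FPKM, log2 difference -3.35, SE 0.33, limma adjusted p = 8.42e-05). Mesenchymal proteins were split too, with 10 of 23 higher and 8 lower in MDA-MB-468. S100A4, a calcium-binding protein linked to motility (2762 against 15.99 FPKM), CD44, the hyaluronan receptor (213 against 4.62 FPKM), and NT5E, the gene of CD73 (14.2 against 0.11 FPKM), were higher with VIM. ITGA5, ACTA2 and COL6A1 were lower, so the list as a whole had a median log2 difference of 0.08, beside 0.11 for all genes.

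Of 14 TGF-beta ligands, receptors, SMADs and targets, 5 were higher and 2 were lower in MDA-MB-468. The ligand genes diverged: TGFB1 (30.6 against 8.84 FPKM) and TGFB2 (6.05 against 0.17 FPKM) were higher, and TGFB3 (0.22 against 6.66 FPKM) was lower. TGFBI, a secreted protein induced by TGF-beta, was 25.0 against 0.68 FPKM (log2 difference 3.95, SE 0.14, limma adjusted p = 4.49e-07). SMAD4, the shared mediator of the pathway, was nearly absent from MDA-MB-468, at 0.026 to 0.0999 FPKM over its 5 samples, against 0.97 to 3.05 in ZR75-1. 

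**Figure D3:**
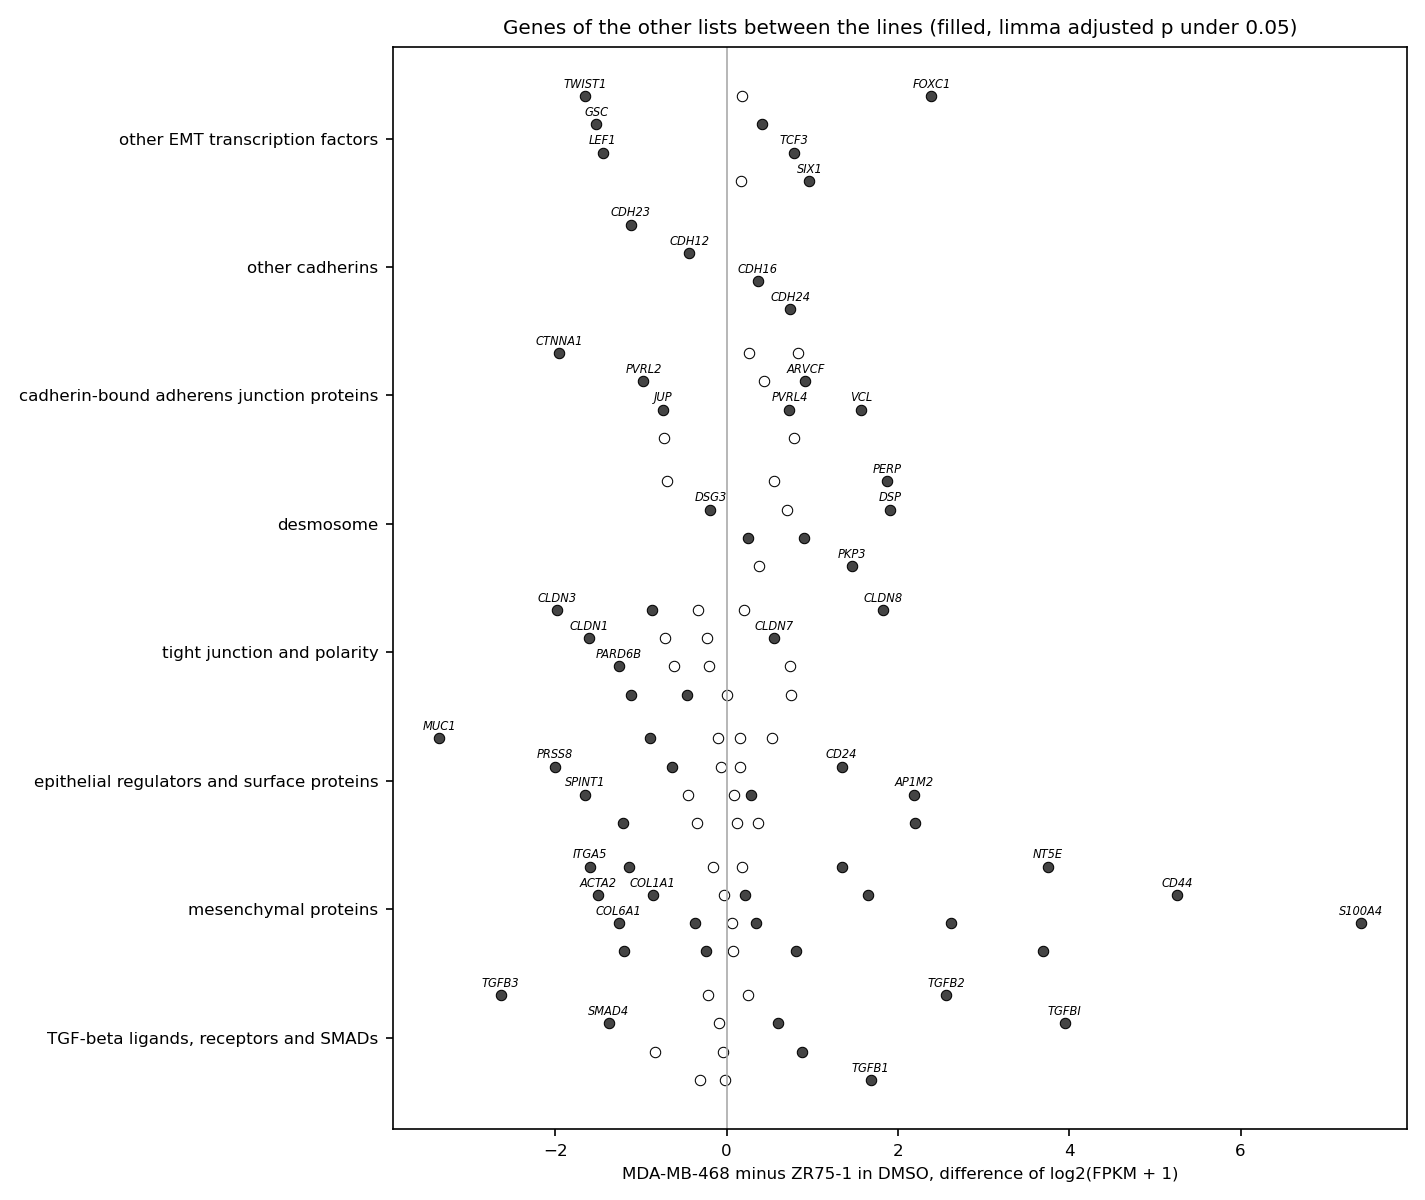
Each tested gene of 8 gene lists placed by its difference of log2(FPKM + 1), MDA-MB-468 minus ZR75-1 in DMSO. Filled points have a limma adjusted p under 0.05, and height within a row has no meaning. Labels name up to 3 called genes per direction and list, and COL1A1 in addition among the mesenchymal proteins. Filled points lie on both sides of 0 in every list, with S100A4 and CD44 farthest to the right and MUC1 farthest to the left.

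Few of the 10 genes were called for PKC412 against DMSO. In MDA-MB-468, 1 of the 7 tested members was called, SNAI1, beside 1.26% of all genes tested and 0.691% called as higher. In ZR75-1 none of the 7 was called by limma, beside 0.946% of all genes, and none had an unadjusted p under 0.05. The groups did not overlap for 4 of 7 members in MDA-MB-468, beside 55.9% of all genes, and for 2 of 7 in ZR75-1, beside 21.7%. A 3-fold rule took its threshold from the study, and the use of mean FPKM and the filter were chosen here. By this rule, SNAI1 was again the only one of 6 expressed members to change in MDA-MB-468. There, 6.14% of all genes were that much higher and 1.07% that much lower. None of 7 changed in ZR75-1, where the shares were 3.15% and 0.932%. The median log2 difference of the tested members was 0.48 for MDA-MB-468 and 0.11 for ZR75-1, beside 0.11 and 0.07 for all genes.

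SNAI1 rose in MDA-MB-468 from 0.96 and 1.41 FPKM in DMSO to 3.90, 3.49 and 3.36 in PKC412. The lowest treated sample was above the highest control, and the 3 treated samples lay close together. The ratio of the means was 3.02, just past the 3-fold line, and the log2 difference was 1.08 (SE 0.13, 95% interval 0.79 to 1.36, limma adjusted p = 0.0077). Without MDA-MB-468 DMSO replicate 1 it was 0.92 with an adjusted p of 0.068. The call was also lost with a smaller pseudocount and with a replicate block, and adjusted p ran from 0.0026 to 0.68 over 20 alternatives, all of them with a higher mean in PKC412.

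In ZR75-1, SNAI1 was 0.09 and 0.23 FPKM in DMSO and 0.33, 0.30 and 0.33 in PKC412. The groups did not overlap here either, but the difference was not called (0.19, SE 0.13, limma adjusted p = 0.63). The difference between the responses of the lines was 0.88 (SE 0.18, 95% interval 0.48 to 1.29, limma adjusted p = 0.13) and was not called, so a line-specific rise was not established. None of the 7 members was called for that difference in limma, beside 0.268% of all genes, and SNAI1 alone had an unadjusted p under 0.05 (0.0010).

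Neither CDH1, which Snail represses, nor any other member was called in the line where SNAI1 rose. The log2 difference for PKC412 in MDA-MB-468 was 0.49 (95% interval -0.30 to 1.28, limma adjusted p = 0.42) for CDH1, 0.03 (95% interval -0.36 to 0.43, limma adjusted p = 0.94) for CDH3 and 0.17 (95% interval -0.13 to 0.47, limma adjusted p = 0.46) for VIM. EPCAM had 0.48 (95% interval -0.37 to 1.33, limma adjusted p = 0.45). FN1 had the largest value of the uncalled members, 0.85 (95% interval 0.09 to 1.61, limma adjusted p = 0.28), with all 3 treated samples above both controls. These intervals leave room for rises of over 2-fold in CDH1, EPCAM and FN1, but not for falls of that size. Those of CDH3 and VIM leave room only for much smaller changes. In ZR75-1 the log2 differences ran from -0.01 for VIM to 0.40 for FN1.

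How the level of a gene followed its GC content differed between the samples, and part of the spread of the members moved with it. The slope of log2 FPKM on GC content, relative to the line mean, was 0.37 and 0.06 log2 units per 10 percentage points for the MDA-MB-468 samples in DMSO and -0.29, -0.02 and -0.12 for those in PKC412, so that slope and treatment cannot be told apart in this line. In ZR75-1 it was 0.31 and -0.19 in DMSO and -0.11, 0.34 and -0.36 in PKC412. The ZR75-1 samples with slopes of 0.31 and 0.34 had the lowest CDH1 of their treatment, the lowest EPCAM and the lowest FN1, and the sample at -0.36 had the highest CDH1, EPCAM and FN1. After FPKM were corrected for GC content and length, an alternative added after the data were seen, SNAI1 in MDA-MB-468 was 1.18 (adjusted p = 0.0026) and its difference in response 0.99 (adjusted p = 0.048), against a range of 0.048 to 0.98 over the alternatives of the latter. The correction was fitted to each sample without regard to treatment, and limma did not account for it. Adjusted p from corrected values may therefore be too small.

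**Figure D4:**
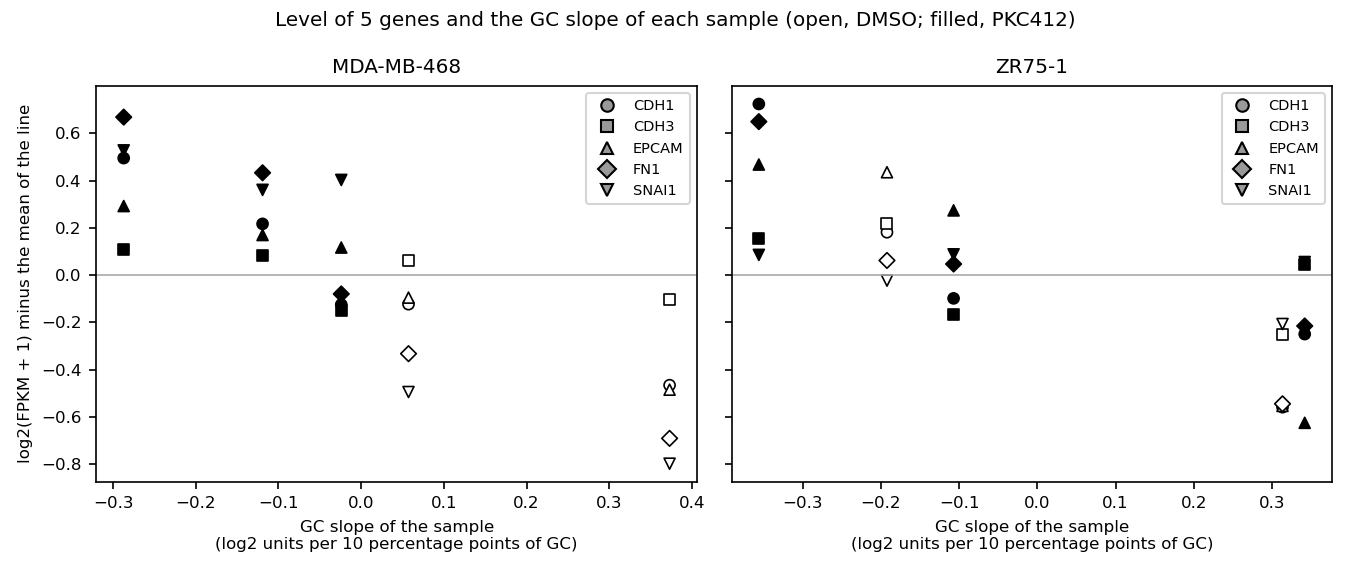
Horizontal axis, GC slope of each sample in log2 units per 10 percentage points of GC; vertical axis, log2(FPKM + 1) of CDH1, CDH3, EPCAM, FN1 and SNAI1 minus the mean of the 5 samples of the line; open symbols DMSO, filled symbols PKC412. In ZR75-1 the samples at slopes of 0.31 and 0.34 hold the lowest EPCAM, and in MDA-MB-468 both DMSO samples lie at positive and all PKC412 samples at negative slopes.

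Outside the 10 genes, few genes of the junction and EMT lists were called after PKC412. None of the other EMT transcription factors, other cadherins, adherens junction or desmosome genes was called in either line by limma. These lists held 9, 4, 11 and 10 tested genes, respectively. The called share of all genes was 1.26% for the basal-like line and 0.946% for the luminal line. At such low shares, the absence of calls in lists this short does not set them apart from other genes. In MDA-MB-468, though, the median log2 difference was 0.66 for adherens junction genes and 0.63 for desmosome genes, beside 0.11 for all genes. CTNNB1, for one, was 26.1 and 43.1 FPKM in DMSO and 99.6, 57.1 and 74.2 in PKC412 there, highest in the sample with the most negative GC slope and lowest in the one with the most positive (log2 difference 1.14, SE 0.42, limma adjusted p = 0.27). CTNNB1 was chosen after its values were seen. Slope and treatment cannot be told apart in this line, and whether GC content bears on these medians was not tested.

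CLDN4, a claudin of tight junctions, fell in ZR75-1 from 101.5 and 121 FPKM to 49.5, 61.9 and 44.9 (log2 difference -1.09, SE 0.15, limma adjusted p = 0.018), the treated samples all below the controls. COL1A1, a fibrillar collagen, rose in ZR75-1 from 2.25 and 2.75 FPKM to 9.11, 6.65 and 11.1 (log2 difference 1.49, SE 0.20, limma adjusted p = 0.018). COL1A1 was the only 1 of the 9 fibroblast markers with a mean above 0.1 FPKM in ZR75-1, and COL3A1 was at 0 in every sample there. The summed level of the 9 markers was 2.26 to 2.77 FPKM in DMSO and 6.71 to 11.2 in PKC412. That sum was almost all COL1A1 and shows no rise of a fibroblast set. ELF5, a luminal progenitor factor, rose in MDA-MB-468 from 0.18 and 0.26 FPKM to 0.82, 0.64 and 0.54 (log2 difference 0.45, SE 0.07, limma adjusted p = 0.029), all below 1 FPKM. The 3 calls were lost in 8, 9 and 11 alternatives, respectively, with adjusted p reaching 0.91, 1 and 0.68, and none was called for the difference between the lines (limma adjusted p = 0.33, 0.27 and 0.25). CLDN4 lost its call without ZR75-1 DMSO replicate 1 (0.058) or 2 (0.069), ZR75-1 PKC412 replicate 1 (0.069) or any MDA-MB-468 sample except PKC412 replicates 1 and 2 (0.055 to 0.063). COL1A1 lost it without either ZR75-1 DMSO replicate (0.15 and 0.050), ZR75-1 PKC412 replicate 1 (0.069) or any MDA-MB-468 sample except PKC412 replicate 2 (0.050 to 0.063). ELF5 lost it without MDA-MB-468 DMSO replicate 1 (0.25) or 2 (0.091) or any ZR75-1 sample except PKC412 replicate 2 (0.055 to 0.074).

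**Figure D5:**
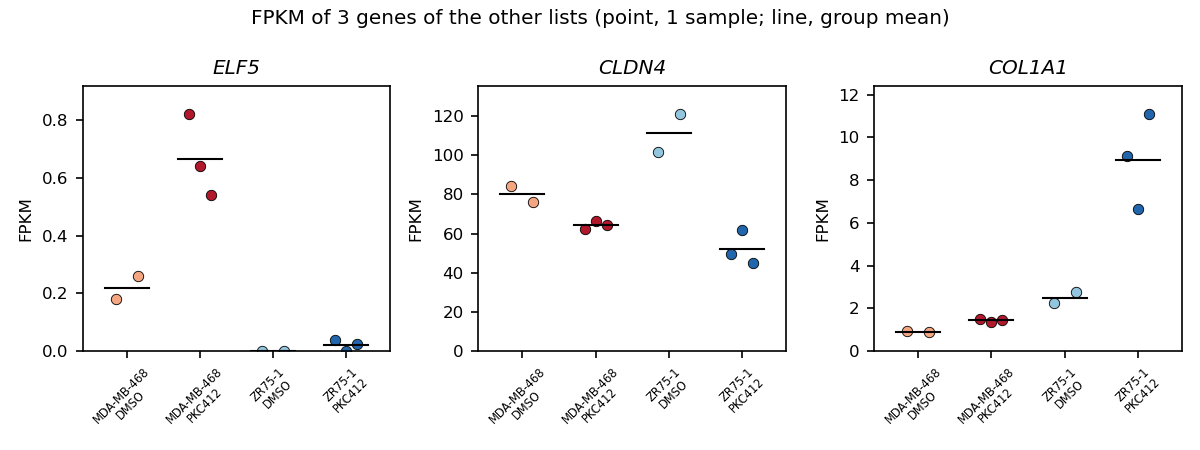
FPKM of ELF5, CLDN4 and COL1A1 in each sample, on linear axes that start at 0; each point is 1 sample, each horizontal line a group mean. CLDN4 lies at 44.9 to 61.9 FPKM in the PKC412 samples of ZR75-1, below both controls, and COL1A1 reaches 6.65 to 11.1 FPKM there.

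The genes whose pattern over the 10 samples was closest to a member were found among 12343 genes above 1 FPKM in at least 1 group, by the root mean square difference of log2(FPKM + 1) after each gene was centred on its mean. For CDH1 these were DNAJA4, BCAS1 and GUSBP3, at 0.22 to 0.24. Their group means in MDA-MB-468 were 0.13 to 0.45 FPKM, against 8.68 and 12.7 for CDH1. The scale understates changes at such low levels, so this closeness does not mean an equal fold difference between the lines. For CDH3 they were TUFT1, PRKCD and SOX13, at 0.08 to 0.10. HENMT1, NLRP2 and CYP27A1 followed VIM, at 0.09 to 0.11, all with group means of 0.30 FPKM or less in ZR75-1 and 27.9 or more in MDA-MB-468. EPCAM was followed by CACYBP, TGDS and MKI67IP, at 0.05 to 0.08.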

How the data were processed

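Libraries from both cell lines were made with the Truseq 2.0 kit and run on a HiSeq2000. The submitters' processing notes name CASAVA 1.82, TopHat2 and hg19. The authors deposited FPKM values per gene symbol, 1 file per sample, from an in-house pipeline; annotation and filters are not given in the sources used here. The methods describe triplicates, and 2 DMSO samples per line were analysed here. Depth is unknown: values reach down to 2.194e-318, with no step of single reads.

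Samples were grouped by their labels. limma 3.58.1 (R 4.3.3) was fitted to log2(FPKM + 1) with 4 group means, eBayes with trend and 6 residual degrees of freedom, over the 16071 genes whose mean FPKM exceeded 0.1 in 1 group or more, for 5 comparisons, and was tested on simulated data. Expressed genes of the 3-fold rule had a mean above 0.1 in at least 1 treatment. GC content came from GENCODE 29 (88.1% of symbols matched), and sequences and positions from RefSeq GRCh38.p14. Python 3.11.15 was used for the rest.

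The members and the 16 other gene lists were chosen with earlier results of these data known. All 10 members were described. From each list, up to 3 genes per direction could be named, those with the largest difference among called genes whose samples did not overlap, or, with none, the 2 with the highest mean; for likeness, 3 genes each. The alternatives were other pseudocounts, filters and scalings, replicate blocks, no trend, each sample left out, and, added after seeing the data, an adjustment for GC content and length. 1 gene of the lists is not reported here.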

Additional observations from a re-analysis of the deposited data

How the results depend on the processing

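The line differences of CDH1, CDH3, VIM and SNAI1 in DMSO kept their direction and their call in all 19 alternatives each. Of 1913 values of named genes under alternatives, 1777 kept direction and side of the threshold, 128 lost the call, 8 gained it and none of the called ones reversed; of 464 uncalled member values, 34 had the other sign. The members called for PKC412 in MDA-MB-468 went from 1 to 0 with a pseudocount of 0.1 or 0.01, with the replicate block within each line and with that block on GC-adjusted values, and ranged from 0 to 1 with 1 sample left out. For the difference in response they went from 0 to 1 with the GC adjustment. The members past 3-fold in MDA-MB-468 went from 1 to 0 with 1 added to both means and under both rescalings, to 2 with no filter on low values (ZEB1 and SNAI1), and ranged from 0 to 2 with 1 sample left out; in ZR75-1 they went from 0 to 1 with no filter (SNAI2) and ranged from 0 to 1 (SNAI1 without DMSO replicate 2). With 1 sample left out, the counts were 4 to 4 between the lines in DMSO, 5 to 7 in PKC412, 0 to 0 for PKC412 in ZR75-1 and 0 to 0 for the difference in response. Where only 1 DMSO sample remained, it was assumed to vary like the other groups.

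The replicate numbers are shared by the groups, but same-numbered samples did not deviate together throughout. The correlation of their deviations over 8733 genes was -0.41 and -0.23 between treatments in MDA-MB-468 and 0.08 and -0.51 in ZR75-1; between the lines it was 0.44 for both numbers in DMSO and -0.13, 0.40 and 0.0089 in PKC412. With the replicate block, 4 members were called between the lines in DMSO, 5 in PKC412 and 0 for PKC412 in either line. No read numbers were available, so values under about 0.1 FPKM carry an unknown counting error.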

Other observations

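Single markers of other cell types differed between the lines in both directions. In DMSO, CD14, a monocyte receptor, was 21.7 FPKM in MDA-MB-468 and 0.99 in ZR75-1 (log2 difference 3.51, limma adjusted p = 1.67e-06), and HLA-DRA, a class II histocompatibility gene, was 0.02 and 12.3 FPKM (log2 difference -3.65, limma adjusted p = 1.33e-05). Of the 6 leukocyte markers 3 were listed at 0 in both DMSO samples of each line. The summed level of the 5 endothelial markers was 0.61 to 0.64 FPKM in MDA-MB-468 DMSO samples and 0.96 to 1.13 in PKC412 samples, where PECAM1 was called (0.83 against 0.47 FPKM, log2 difference 0.31, limma adjusted p = 0.040). That call was lost in 17 of 19 alternatives.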
